A study of Mus musculus with 12 samples.

Results

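The T cell receptor complex and the T lineage were followed through 38 genes in ileum and synovium of TNFdARE mice and their WT littermates. The genes were chosen by name, each symbol was matched to 1 row of the count table, and all 38 were found among 46603 Ensembl identifiers. They comprised the CD3 and zeta chains (Cd3d, Cd3e, Cd3g, Cd247), the constant regions of the receptor (Trac, Trbc1, Trbc2, Trdc, Tcrg-C1), the coreceptors (Cd4, Cd8a, Cd8b1), kinases and adaptors close to the receptor (Lck, Zap70, Txk, Lat, Fyb, Skap1, Sh2d1a, Trat1, Themis, Sit1, Lax1, Ubash3a), surface receptors (Cd2, Cd5, Cd6, Cd27, Cd96, Icos, Il7r, Il2rb) and transcription factors (Tcf7, Lef1, Bcl11b, Gata3, Satb1, Ets1). TNFdARE mice lack the AU-rich element in the Tnf gene that limits the stability and translation of its mRNA. They are known for inflammation of the ileum and of the joints, and the WT animals were littermates without this deletion. The 4 groups were ileum of TNFdARE mice, ileum of WT mice, synovium of TNFdARE mice and synovium of WT mice, the synovium taken from the ankle, with 3 biological replicates each. The labels give neither age, sex nor zygosity, nor whether ileum and ankle were from 1 animal, and the deletion is not restricted to a cell type.

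A T cell recognises antigen through a receptor made of an alpha and a beta chain or of a gamma and a delta chain, which pairs with the CD3 and zeta chains that carry the signal. CD4 and CD8 bind the presenting molecule and bring the kinase Lck to the receptor, Lck phosphorylates the CD3 and zeta chains, Zap70 docks there, and the scaffold Lat passes the signal on. The small intestine is known for intraepithelial lymphocytes, many of which carry gamma delta receptors or CD8 alpha alpha homodimers. A healthy synovium is known to hold few T cells and many fibroblasts and macrophages. Several of the 38 genes are known outside T cells as well: Ets1 and Satb1 in many tissues, Fyb in myeloid cells and platelets, Il2rb in natural killer cells, Il7r in lymphoid precursors, and Cd4 in some dendritic cells of the mouse.

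Each library held between 14267834 and 16224402 counts. Levels are CPM, which scales a gene's counts to the library total after TMM normalization. Where a gene had no counts, up to 3 counts (0.173 to 0.219 CPM) remain possible. This limit and the intervals given for shares describe counting error alone, since the reads carried no molecular identifiers. The altered gene, Tnf, had 82.7, 17.2 and 47.3 CPM in TNFdARE ileum, against 2.63, 1.39 and 1.62 CPM in WT ileum, and 38.4, 32.5 and 28.3 CPM in TNFdARE synovium, against 2.15, 2.02 and 1.89 CPM in WT synovium. Replicate 2 of TNFdARE ileum stood apart from the other two of its group. The summed level of the 38 genes was 288.0 CPM in it, against 727.1 and 553.6 CPM in replicates 1 and 3, and WT ileum had 323.9, 261.8 and 313.6 CPM. The same library was the lowest of its group in the summed B cell and follicle genes (41.1, against 369.9 and 109.6 CPM) and in the dendritic cell and macrophage genes (1043, against 4810 and 2711 CPM). The counts of ileum calls and the values of Trdc, Cd4 and Il2rb are therefore given with and without it. Most other ileum values are given with it only. The tissue labels matched their marker genes: 7 intestinal epithelium genes summed to between 9668 and 13682 CPM in the 6 ileum libraries and to between 30.4 and 41.7 CPM in the 6 synovium libraries. Trat1, an adaptor of the receptor, was the lowest member, with 0, 0 and 1 counts in TNFdARE synovium and 0, 0 and 1 counts in WT synovium.

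In the promoters of T lineage genes, sites of the ETS and RUNX transcription factor families are well known. RefSeq promoter sequences (GRCm38.p6, the 250 bases before an annotated start) were matched to 24 of the 38 genes with 38 windows. The ETS core GGAAGT, on either strand, was present in 15 of these windows from 12 genes (39.5%), against 19.7% of 32851 windows over all genes, and the RUNX core TGTGGT, on either strand, in 7 windows from 6 genes (18.4%), against 14.05%. Some genes had several windows, which are not independent, and overlapping windows count the same site more than once, as for the RUNX core of Lax1. The letters of the ETS core and the RUNX core do not overlap in the windows below. The following windows belong to the kinase genes Lck and Txk and to the coreceptor gene Cd8a, which were lower in TNFdARE synovium, and to Cd3e, a chain of the same receptor complex that did not pass the test there. Capitals mark the ETS core (GGAAGT or ACTTCC) and the RUNX core (TGTGGT or ACCACA), and each window is written 5′ to 3′ on the strand of its gene. The Lck gene is known for a distal promoter used by mature T cells and a proximal promoter used mainly by thymocytes. A match is a description of letters and not a shown binding site.
Lck distal, chr4:129573642-129573891, minus strand: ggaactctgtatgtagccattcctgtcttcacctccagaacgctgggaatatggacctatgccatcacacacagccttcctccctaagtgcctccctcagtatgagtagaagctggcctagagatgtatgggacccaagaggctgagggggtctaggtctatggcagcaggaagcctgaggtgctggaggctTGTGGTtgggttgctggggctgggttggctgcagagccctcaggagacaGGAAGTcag
Lck proximal, chr4:129558373-129558622, minus strand: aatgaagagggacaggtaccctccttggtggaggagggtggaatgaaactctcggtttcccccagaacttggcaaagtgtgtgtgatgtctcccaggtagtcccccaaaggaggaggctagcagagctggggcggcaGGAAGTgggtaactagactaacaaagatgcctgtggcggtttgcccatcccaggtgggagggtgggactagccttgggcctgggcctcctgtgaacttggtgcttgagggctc
Txk upstream, chr5:72752778-72753027, minus strand: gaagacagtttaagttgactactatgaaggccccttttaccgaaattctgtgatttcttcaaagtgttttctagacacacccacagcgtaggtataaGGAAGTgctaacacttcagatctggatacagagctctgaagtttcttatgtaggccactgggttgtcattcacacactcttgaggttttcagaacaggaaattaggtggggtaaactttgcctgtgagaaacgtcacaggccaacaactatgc
Txk internal, chr5:72736603-72736852, minus strand: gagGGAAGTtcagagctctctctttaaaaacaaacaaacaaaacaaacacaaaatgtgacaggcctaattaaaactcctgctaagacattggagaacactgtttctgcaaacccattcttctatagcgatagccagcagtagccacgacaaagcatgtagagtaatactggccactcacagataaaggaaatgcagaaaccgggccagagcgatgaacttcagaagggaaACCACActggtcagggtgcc
Cd8a, chr6:71373177-71373426, plus strand: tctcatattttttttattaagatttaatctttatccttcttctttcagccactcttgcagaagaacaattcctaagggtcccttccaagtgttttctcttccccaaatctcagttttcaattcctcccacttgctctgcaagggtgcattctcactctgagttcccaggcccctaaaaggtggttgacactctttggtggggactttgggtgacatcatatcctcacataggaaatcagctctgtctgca
Cd3e, chr9:45009612-45009861, minus strand: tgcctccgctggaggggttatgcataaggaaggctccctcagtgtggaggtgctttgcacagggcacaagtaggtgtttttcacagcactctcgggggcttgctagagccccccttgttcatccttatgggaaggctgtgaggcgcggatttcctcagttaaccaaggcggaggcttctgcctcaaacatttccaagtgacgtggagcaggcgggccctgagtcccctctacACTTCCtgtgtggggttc
The distal Lck window held an ETS core that began 9 bases before the start and a RUNX core 58 bases before it. The proximal Lck window held an ETS core 113 bases before the start. In the Txk windows an ETS core lay 153 bases before the upstream start, and an ETS core and a RUNX core lay 247 and 20 bases before the internal start. Cd3e had an ETS core 18 bases before the start, and the Cd8a window held neither string. Tcf7 and Satb1, which also fell in the synovium, had windows with and windows without an ETS core, not shown here.

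In the ileum, most of the T lineage genes had higher means in TNFdARE than in WT mice, but only Trdc, the constant region of the delta chain, passed the test, and it fell. Of 35 members tested (Sh2d1a, Trat1 and Sit1 were too low), 0 rose and 1 fell by edgeR's quasi-likelihood test at an adjusted p under 0.05, where 4.12% of all 15462 genes tested rose and 1.57% fell. At an unadjusted p under 0.05, 10 members were higher and 2 lower. Taken in either direction this was close to the share of all genes, of which 4716 of 15462 had such a p. How all genes split by direction at this p was not counted. The log2 fold change of TNFdARE over WT was above 0 for 30 members and below 0 for 5, with a median of 0.68, against -0.002 over all genes tested. The 3 TNFdARE libraries lay above all 3 WT libraries for 10 members (Trac, Cd4, Fyb, Cd2, Cd5, Cd6, Icos, Il7r, Gata3, Ets1) and below them for 2 (Trdc, Tcrg-C1). Such non-overlap was seen upward in 18.9% and downward in 18.4% of all genes. The count of calls rested on single libraries. Without TNFdARE replicate 2, 25 of the members passed, 24 upward and 1 downward, in a fit that called 16.5% of all genes up and 12.8% down. Without any other single library, 0 members passed. With replicate number as a block, 3 members passed: Cd4 and Icos upward and Trdc downward (5.51% of all genes up, 1.79% down). The labels do not state that these numbers pair the libraries. DESeq2 called 10 members, 9 upward and 1 downward, and limma called 0 on voom weights and 0 on the deposited FPKM.

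In the synovium, the transcripts of Cd8a, of the kinases Lck and Txk and of several T lineage transcription factors fell in TNFdARE mice, while Cd4 and Fyb rose. Of 34 members tested (Tcrg-C1, Sh2d1a, Trat1 and Themis were too low), 2 rose and 8 fell. The 8 include Cd8b1, which passed the low-count filter only through the WT libraries, so its call is not counted as support. Over all 15599 genes tested, 13.1% rose and 10.7% fell. The log2 fold change was above 0 for 10 members and below 0 for 24, with a median of -0.55, against 0.003 over all genes. TNFdARE libraries lay above all WT libraries for 4 members (Cd4, Fyb, Icos, Il7r; 20.7% of all genes) and below them for 14 (23.2% of all genes). With the replicate block 14 members passed, the same 10 and in addition Il7r upward (0.97 ± 0.19, adjusted p = 0.0103) and Trbc2 (-1.14 ± 0.34, adjusted p = 0.0424), Lax1 (-0.72 ± 0.18, adjusted p = 0.0213) and Cd96 (-1.17 ± 0.36, adjusted p = 0.0482) downward (15.6% of all genes up, 15.4% down). The summed level of 9 skeletal muscle genes, a tissue that can come along in dissection, was 6506, 3855 and 1644 CPM in TNFdARE synovium and 17702, 10293 and 10313 CPM in WT synovium. With the muscle level as a covariate 2 members passed, Il2rb and Lef1, both downward, in a fit that called 1.94% of all genes up and 0.404% down, and muscle content and genotype cannot be told apart. In bulk RNA, fewer cells of a type and less RNA per cell cannot be told apart either.

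**Figure D1:**
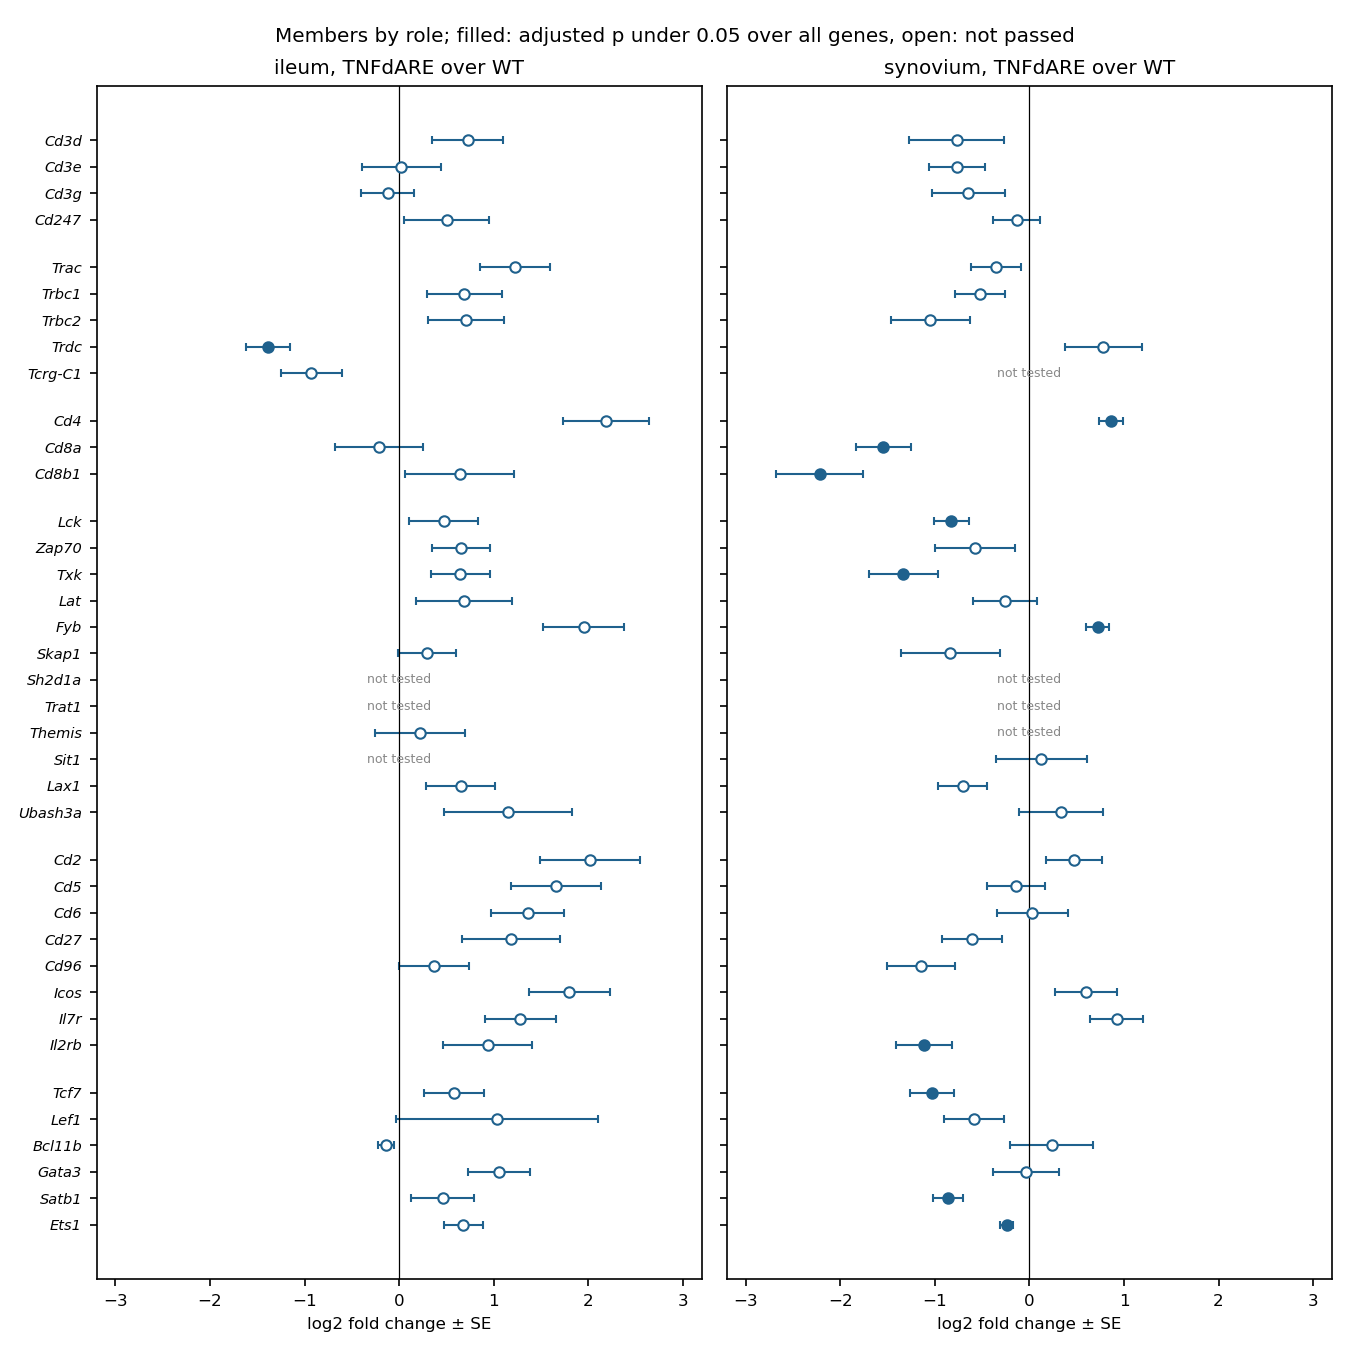
Log2 fold change of TNFdARE over WT (horizontal axis, with the standard error as bars) for the members in order of their role, in the ileum on the left and in the synovium on the right; filled points passed an adjusted p of 0.05 over all genes. In the ileum 30 of 35 points lie right of 0 and only Trdc is filled; in the synovium 24 of 34 lie left of 0 and 10 are filled.

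The CD3 and zeta chains, the signalling core of the receptor, did not pass in either tissue (0 of 4 in the ileum, where 0 also had an unadjusted p under 0.05, and 0 of 4 in the synovium, where 1 of 4 did). Cd3e (ENSMUSG00000032093, chr9:44998740-45009627) encodes the epsilon chain, which every T cell receptor needs. Gene coordinates here and for the following members span the whole gene in GENCODE on GRCm38. It had 10.5, 4.15 and 12.6 CPM in TNFdARE ileum, against 11.0, 6.49 and 9.43 CPM in WT ileum, and the groups overlapped. Its log2 fold change there was 0.02 ± 0.42 (SE; adjusted p = 0.976). In the synovium Cd3e had 1.26, 0.864 and 1.51 CPM in TNFdARE and 2.08, 1.89 and 2.35 CPM in WT. All 3 TNFdARE libraries lay below the WT libraries, with a log2 fold change of -0.77 ± 0.30 that did not pass (adjusted p = 0.101). Cd247 (ENSMUSG00000005763, chr1:165788681-165877277), the zeta chain that carries most of the phosphorylation sites of the complex, had 7.05, 2.04 and 3.93 CPM in TNFdARE ileum, against 3.74, 2.34 and 3.17 CPM in WT ileum. In TNFdARE synovium it had 3.30, 2.94 and 3.48 CPM, against 3.26, 2.86 and 4.76 CPM in WT synovium. Its groups overlapped in both tissues (0.50 ± 0.45, adjusted p = 0.486, and -0.14 ± 0.25, adjusted p = 0.734). Cd247 shares 3007 exon bases with Pou2f1 on the opposite strand, and without a stated strand setting in the counting its reads are uncertain. The delta and gamma chains of CD3 gave 0.73 for Cd3d and -0.12 for Cd3g in the ileum, and -0.77 and -0.65 in the synovium.

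The constant regions of the receptor went in opposite directions in the ileum: those of the gamma delta receptor had lower means and those of the alpha beta receptor higher means in TNFdARE than in WT, and Trdc was the only one of 5 to pass. Trdc (ENSMUSG00000104876, chr14:54142851-54148868) had 2.41, 2.39 and 1.83 CPM in TNFdARE ileum, against 7.28, 5.11 and 5.07 CPM in WT ileum. The groups did not overlap and replicate 2 did not stand apart here, and Trdc fell by 1.39 on the log2 scale (SE 0.24, adjusted p = 0.0404). It passed without TNFdARE replicate 2 too (-1.43 ± 0.27, adjusted p = 0.00744), but not without any of the other 5 libraries. In the synovium Trdc had 6.23, 3.46 and 7.36 CPM in TNFdARE and 5.33, 2.28 and 2.54 CPM in WT, with overlapping groups (0.78 ± 0.41, adjusted p = 0.204). With the replicate block, a pairing that the labels do not state, the value was 0.80 ± 0.29 (adjusted p = 0.0748). Trdc shares 207 exon bases with Trdv5 on the opposite strand, a segment with 3 counts in all TNFdARE ileum libraries and 11 in all WT ileum libraries. Tcrg-C1, a gamma chain constant region, had 2.54, 2.89 and 4.85 CPM in TNFdARE ileum, against 8.59, 5.98 and 4.99 CPM in WT ileum. These groups did not overlap either, and the fold change did not pass (-0.93 ± 0.32, adjusted p = 0.114). Trac (ENSMUSG00000076928, chr14:54220521-54224206), the constant region of the alpha chain, had 21.5, 7.67 and 14.5 CPM in TNFdARE ileum, against 6.93, 5.33 and 6.47 CPM in WT ileum. Its groups did not overlap and the test was not passed (1.23 ± 0.37, adjusted p = 0.0881). In TNFdARE synovium Trac had 3.42, 3.05 and 3.13 CPM, against 5.47, 2.86 and 4.17 CPM in WT synovium (-0.35 ± 0.27, adjusted p = 0.375). Trbc1 and Trbc2, the near-identical constant regions of the beta chain, gave 0.69 and 0.71 in the ileum and -0.52 and -1.05 in the synovium, and how reads were divided between them is uncertain.

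Shares set the counts of receptor genes of the same library against each other, without correction for exon length. Trdc has 3865 exon bases and Trac 935, so their share compares libraries and does not give the proportion of transcripts. Per kilobase of exon, Trdc had a lower mean than Trac in all 4 groups. In TNFdARE synovium these means were 1.47 and 3.42 CPM per kb. Of the counts of Trac and Trdc together, Trdc made up 10.1%, 23.8% and 11.2% in TNFdARE ileum, against 51.2%, 49.0% and 43.9% in WT ileum (15.0 ± 7.61% and 48.0 ± 3.75%, mean and SD, n = 3 each). The 95% Wilson interval of the highest TNFdARE library, 17.5% to 31.4%, lay below that of the lowest WT library, 36.5% to 51.6%. Gamma among the gamma and beta constant regions followed, with 25.1%, 43.8% and 46.1% in TNFdARE ileum, against 65.3%, 61.4% and 59.8% in WT ileum. The variable segments were counted as well, by their annotation and without a look at rearrangement. Of the counts of 108 alpha, 22 beta, 7 gamma and 5 delta variable segments, the gamma and delta ones held 17.7%, 46.2% and 30.1% in TNFdARE ileum, against 54.6%, 55.8% and 51.6% in WT ileum. Neither share overlapped between genotypes. Each of these 3 ileum shares had an exact two-sided permutation p of 0.1, the smallest that 3 against 3 can give, and 0.171 after Benjamini-Hochberg adjustment over 12 share tests. In the synovium the Trdc share was higher in TNFdARE, at 64.6%, 53.1% and 70.2%, against 49.4%, 44.3% and 37.9% in WT (exact permutation p = 0.1, adjusted 0.171). Gamma among the gamma and beta constant regions had instead a lower mean, 19.0 ± 3.63% in TNFdARE and 23.8 ± 4.35% in WT (SD, n = 3 each, exact permutation p = 0.3), on only 53 to 117 counts a library. The gamma and delta variable segments had a higher mean, like the Trdc share, with 39.7 ± 14.9% in TNFdARE synovium and 26.8 ± 10.6% in WT synovium (exact permutation p = 0.4). These groups overlapped, on 27 to 67 counts a library.

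Single gamma and delta segments differed among themselves. Tcrg-V7, the segment known from gamma delta intraepithelial lymphocytes of the small intestine, had 8, 3 and 8 counts in TNFdARE ileum, against 22, 16 and 19 counts in WT ileum, and 0 counts in all 6 synovium libraries. Tcrg-C2 had 57, 31 and 101 counts in TNFdARE ileum, against 107, 66 and 122 counts in WT ileum, which overlapped. Trdv4 had 14, 9 and 9 counts in TNFdARE ileum and 3, 6 and 11 counts in WT ileum, so the direction was not shared by all segments. Beta variable segments held 156, 26 and 99 counts in TNFdARE ileum and 41, 40 and 50 counts in WT ileum, and TNFdARE replicate 2 was the lowest of all 6. These segments, and Tcrg-C1, Icos and Bcl11b among the members, were picked for description after their values were seen.

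**Figure D2:**
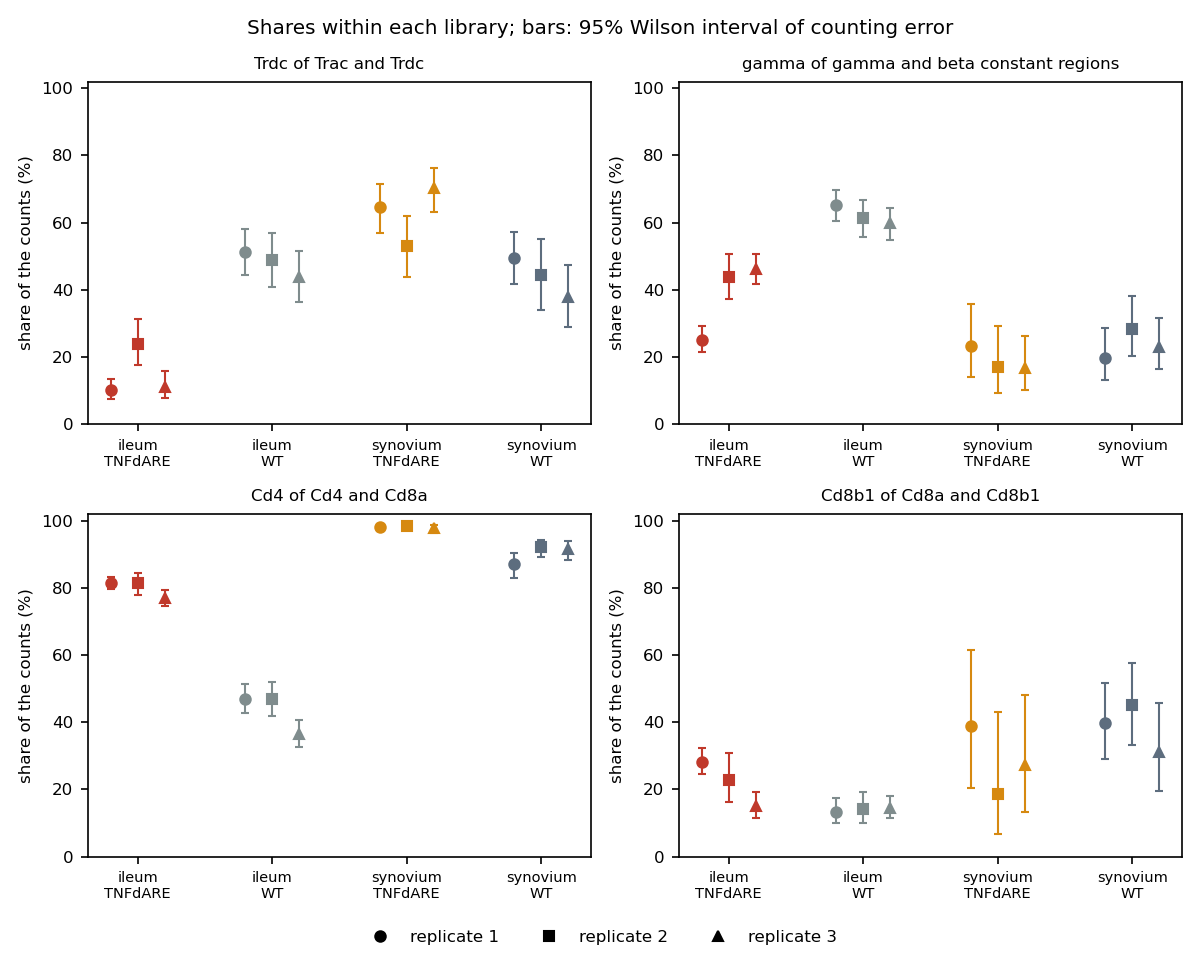
Percentage of the counts (vertical axis) that Trdc took of Trac and Trdc, gamma of the gamma and beta constant regions, Cd4 of Cd4 and Cd8a, and Cd8b1 of Cd8a and Cd8b1 in each library, with 95% Wilson intervals of counting error as bars. The 3 TNFdARE ileum libraries lie below the 3 WT ileum libraries in both upper panels (10.1% to 23.8% against 43.9% to 51.2% for Trdc) and above them for Cd4 (77.0% to 81.5% against 36.6% to 47.0%).

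Of the 3 coreceptors, none passed in the ileum, and in the synovium Cd4 rose while Cd8a fell. Cd8b1 was lower there too, but its call depends on the low-count filter. Cd4 (ENSMUSG00000023274, chr6:124864692-124888221), which binds MHC class II, had 104.4, 30.0 and 66.9 CPM in TNFdARE ileum, against 17.1, 12.6 and 14.6 CPM in WT ileum. All 3 TNFdARE libraries were higher, but they spread widely, and the log2 fold change of 2.19 ± 0.46 just missed the threshold (adjusted p = 0.0515). It did pass when replicate number was a block (2.04 ± 0.29, adjusted p = 0.0374) and without TNFdARE replicate 2 (2.55 ± 0.22, adjusted p = 8.41e-04). In TNFdARE synovium Cd4 had 35.4, 42.4 and 40.3 CPM, against 19.3, 24.9 and 22.1 CPM in WT synovium. It rose by 0.86 ± 0.12 without overlap (adjusted p = 0.00384). Cd8a (ENSMUSG00000053977, chr6:71373427-71379173), the CD8 alpha chain, had 23.7, 6.90 and 20.02 CPM in TNFdARE ileum, against 19.3, 14.3 and 25.4 CPM in WT ileum, with overlapping groups (-0.21 ± 0.47, adjusted p = 0.789). In TNFdARE synovium Cd8a had 0.659, 0.749 and 0.927 CPM, against 2.84, 2.15 and 2.02 CPM in WT synovium, and fell by 1.54 (SE 0.29, adjusted p = 0.0105). Cd8b1 (ENSMUSG00000053044, chr6:71322788-71337494), the beta chain of conventional cytotoxic T cells, had 9.33, 2.04 and 3.51 CPM in TNFdARE ileum, against 2.98, 2.34 and 4.29 CPM in WT ileum (0.64 ± 0.58, adjusted p = 0.485). In TNFdARE synovium it had 0.420, 0.173 and 0.348 CPM, from 7, 3 and 6 counts, against 1.87, 1.76 and 0.913 CPM in WT synovium, from 27, 27 and 14 counts. It fell by 2.22 there (SE 0.46, adjusted p = 0.0145). In the synovium fit Cd8b1 passed the low-count filter only through the WT libraries, where it was high. Its call there depends on the filter and is not counted as support. The calls of Cd4, Cd8a and Cd8b1 in the synovium were kept without any single library and ended with the muscle covariate (adjusted p = 0.190, 0.229 and 0.379).

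Of the counts of Cd4 and Cd8a together, Cd4 took 81.5%, 81.3% and 77.0% in TNFdARE ileum, against 47.0%, 46.9% and 36.6% in WT ileum. Replicate 2 of TNFdARE ileum, low in most T lineage genes, was not apart in this share. In the synovium Cd4 took 98.2%, 98.3% and 97.7% in TNFdARE, against 87.1%, 92.0% and 91.6% in WT. Both differences had an exact permutation p of 0.1 (adjusted 0.171). Cd8b1 took 28.2%, 22.8% and 14.9% of the CD8 chains in TNFdARE ileum, against 13.4%, 14.04% and 14.5% in WT ileum (exact permutation p = 0.1, adjusted 0.171), and the Wilson interval of TNFdARE replicate 3, 11.5% to 19.1%, covered all 3 WT values. The dendritic cell and macrophage genes, a source in which Cd4 is also known, summed to 4810, 1043 and 2711 CPM in TNFdARE ileum, against 302.1, 231.5 and 254.5 CPM in WT ileum, and to 5821, 4327 and 5198 CPM in TNFdARE synovium, against 1388, 1768 and 1588 CPM in WT synovium. Their part in the Cd4 level and share was not tested.

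**Figure D3:**
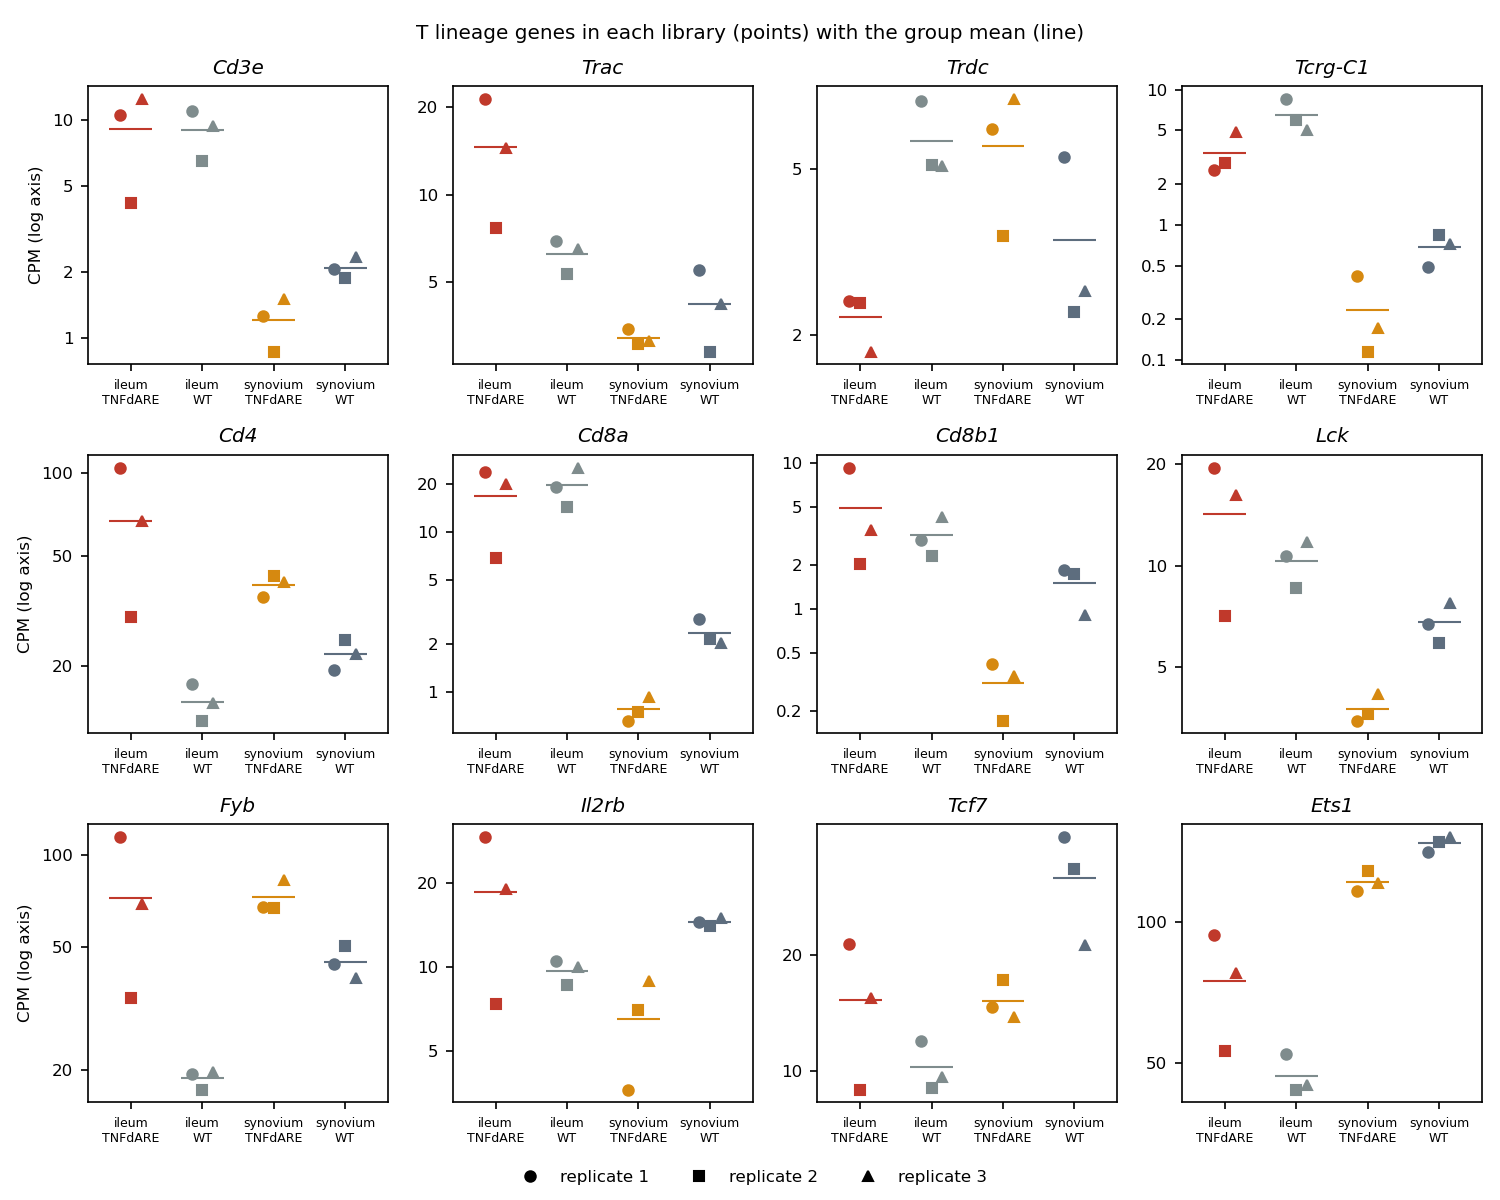
Level in CPM (vertical axis, logarithmic) of 12 T lineage genes in each library, with the replicate as the symbol and the group mean as a line. In the ileum TNFdARE replicate 2 lies below the other two TNFdARE libraries for most of the genes but not for Trdc or Tcrg-C1; in the synovium the TNFdARE libraries lie below WT for Cd8a, Cd8b1, Lck, Il2rb, Tcf7 and Ets1 and above WT for Cd4 and Fyb.

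Among the kinases and adaptors, 0 of 9 passed in the ileum, where 1 had an unadjusted p under 0.05, and all 9 log2 fold changes were above 0, with a median of 0.65. In the synovium 1 of 9 rose and 2 fell, where 13.1% of all genes rose and 10.7% fell. Lck (ENSMUSG00000000409, chr4:129548344-129573641), the Src family kinase that starts receptor signalling, had 19.6, 7.11 and 16.2 CPM in TNFdARE ileum, against 10.7, 8.61 and 11.7 CPM in WT ileum, with overlap (0.47 ± 0.36, adjusted p = 0.416). In TNFdARE synovium Lck had 3.48, 3.63 and 4.17 CPM, against 6.72, 5.92 and 7.76 CPM in WT synovium, and fell by 0.83 (SE 0.19, adjusted p = 0.0191). Txk (ENSMUSG00000054892, chr5:72695978-72752777), a Tec family kinase of T cells, had 2.86, 1.76 and 3.16 CPM in TNFdARE ileum, against 1.46, 2.12 and 1.41 CPM in WT ileum (0.65 ± 0.31, adjusted p = 0.210). In TNFdARE synovium it had 0.539, 0.806 and 0.927 CPM, against 1.39, 1.89 and 2.61 CPM in WT synovium, and fell by 1.33 (SE 0.37, adjusted p = 0.0373). Both kinases lay below all WT libraries in the synovium. Lck lost its call there without TNFdARE replicate 1 or 2 or WT replicate 3 (adjusted p = 0.0529, 0.0510 and 0.0726), and Txk lost it without any single library except WT replicate 1 (adjusted p from 0.0744 to 0.123 in those 5 fits).

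Fyb (ENSMUSG00000022148, chr15:6522853-6663313), an adaptor that links the receptor to integrin adhesion and that myeloid cells also use, had 114.3, 34.2 and 68.9 CPM in TNFdARE ileum, against 19.4, 17.3 and 19.7 CPM in WT ileum. These groups did not overlap (1.95 ± 0.43, adjusted p = 0.0542). In TNFdARE synovium it had 67.6, 67.3 and 82.9 CPM, against 44.1, 50.7 and 39.8 CPM in WT synovium, and rose by 0.72 ± 0.12 (adjusted p = 0.00686). With Cd2 (2.02), Cd4 and Fyb had the 3 highest log2 fold changes of the members in the ileum. The part of the dendritic cells and macrophages, whose summed levels are given above, in the Fyb values was not tested. Sh2d1a (ENSMUSG00000005696, chrX:42502453-42529330), the adaptor SAP of the SLAM receptors, was near the detection limit. It had 21, 5 and 16 counts in TNFdARE ileum, against 7, 6 and 3 in WT ileum, and 3, 3 and 3 counts in TNFdARE synovium, against 7, 8 and 10 in WT synovium. Sh2d1a shares 1465 exon bases with Tenm1 on the opposite strand, which had 5, 1, 2 and 14 counts in the TNFdARE ileum, WT ileum, TNFdARE synovium and WT synovium groups. The other adaptors and kinases (Zap70, Lat, Skap1, Themis, Lax1, Ubash3a, Sit1) gave between 0.22 and 1.154 in the ileum where tested and between -0.84 and 0.34 in the synovium where tested, and none passed.

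Of the 8 surface receptors, 0 passed in the ileum, where 5 had an unadjusted p under 0.05 (4716 of all 15462 genes did) and all 8 log2 fold changes were above 0, with a median of 1.32. Cd2, Cd5, Cd6, Icos and Il7r had no overlap between the ileum groups. Icos, a costimulator of activated and follicular helper T cells, had 14.2, 4.86 and 13.1 CPM in TNFdARE ileum, against 3.81, 2.41 and 3.03 CPM in WT ileum (1.80 ± 0.43, adjusted p = 0.0579, and with the replicate block 1.71 ± 0.26, adjusted p = 0.0342). In the synovium 1 of 8 fell, where 10.7% of all genes fell. Il2rb (ENSMUSG00000068227, chr15:78479256-78495271), the beta chain of the IL-2 and IL-15 receptors, had 3.66, 7.03 and 8.92 CPM in TNFdARE synovium, against 14.5, 13.99 and 15.0 CPM in WT synovium. It fell by 1.12 (SE 0.30, adjusted p = 0.0357), and it was 1 of the 2 members called with the muscle covariate (-2.08 ± 0.39, adjusted p = 0.0491). In the ileum Il2rb had 29.1, 7.39 and 19.0 CPM in TNFdARE and 10.5, 8.61 and 9.99 CPM in WT (0.94 ± 0.47, adjusted p = 0.235). Without TNFdARE replicate 2 the ileum value of Il2rb was 1.33 ± 0.20 (adjusted p = 0.00282). Natural killer cells also carry Il2rb. Among 11 intraepithelial lymphocyte and natural killer genes tested in the synovium, Klrb1c (NK1.1), Prf1 and Gzma fell and Cd244a and Itgae rose. Over all genes tested there, 10.7% fell and 13.1% rose. The part of natural killer cells in the Il2rb result was not tested.

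Of the 6 transcription factors, 0 passed in the ileum, where 2 had an unadjusted p under 0.05 (4716 of all 15462 genes did), and 3 fell in the synovium, where 10.7% of all genes fell. Tcf7 (ENSMUSG00000000782, chr11:52252371-52283014), the factor TCF-1 of naive and memory T cells, had 14.6, 17.2 and 13.8 CPM in TNFdARE synovium, against 40.6, 33.4 and 21.3 CPM in WT synovium. It fell by 1.03 (SE 0.23, adjusted p = 0.0223), and WT replicate 3 was closest to the TNFdARE libraries. In TNFdARE ileum Tcf7 had 21.4, 8.94 and 15.5 CPM, against 11.99, 9.05 and 9.64 CPM in WT ileum (0.58 ± 0.32, adjusted p = 0.258). Satb1 (ENSMUSG00000023927, chr17:51736187-51833290), a chromatin organiser of developing T cells, had 22.1, 25.6 and 16.1 CPM in TNFdARE synovium, against 40.5, 39.8 and 38.1 CPM in WT synovium, and fell by 0.86 (SE 0.16, adjusted p = 0.00930). In TNFdARE ileum it had 15.2, 5.84 and 10.5 CPM, against 7.41, 8.39 and 7.25 CPM in WT ileum (0.46 ± 0.33, adjusted p = 0.384). Ets1 (ENSMUSG00000032035, chr9:32636221-32757820), the founding member of the ETS family, had 116.7, 128.8 and 121.6 CPM in TNFdARE synovium, against 141.8, 148.5 and 152.7 CPM in WT synovium. The groups did not overlap and Ets1 fell by 0.24 (SE 0.07, adjusted p = 0.0452). In TNFdARE ileum Ets1 had 94.0, 53.1 and 77.8 CPM, against 52.2, 43.8 and 44.7 CPM in WT ileum, also without overlap and in the other direction (0.68 ± 0.21, adjusted p = 0.0918). Satb1 kept its synovium call without any single library. Tcf7 lost it without TNFdARE replicate 1 or 3 or WT replicate 2 (adjusted p = 0.0678, 0.0836 and 0.0596), and Ets1 lost it without any single library except WT replicate 1 (adjusted p from 0.0503 to 0.141). Bcl11b, the factor that fixes T lineage identity, had 33.0, 35.2 and 37.4 CPM in TNFdARE ileum and 40.3, 36.5 and 39.7 CPM in WT ileum, a smaller spread than that of the CD3 chains in the same libraries. Gata3 and Lef1 gave 1.06 and 1.03 in the ileum and -0.04 and -0.59 in the synovium.

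The genes that made up the set differed between the tissues. In TNFdARE and WT ileum, Ets1 held 14.3% and 15.6% of the counts of all 38 genes, and in TNFdARE and WT synovium 33.4% and 37.2%. Ets1, Fyb, Cd4, Il7r, Satb1 and Tcf7 together held 80.1% of these counts in TNFdARE synovium, and Ets1, Fyb, Satb1, Tcf7, Cd4 and Il2rb held 75.5% in WT synovium. In level per kilobase of exon, the order in TNFdARE ileum began with Cd4 (16.6 ± 9.22 CPM per kb, SD, n = 3), Trac (15.6 ± 7.37) and Fyb (13.5 ± 7.46), which did not differ beyond their spread. In WT ileum it began with Lax1 (7.86 ± 1.498), Trbc2 (7.75 ± 1.56), Tcrg-C1 (7.06 ± 2.01) and Trac (6.68 ± 0.883), which did not differ beyond their spread either. In TNFdARE synovium Ets1 (14.4 ± 0.718) and Fyb (13.5 ± 1.66) led, with Cd4 (9.76 ± 0.894) behind them. In WT synovium Ets1 (17.4 ± 0.649) led, ahead of Tcf7 (12.1 ± 3.72), Fyb (8.33 ± 1.02) and Cd4 (5.48 ± 0.695). Cd3e stood at 2.23 and 2.20 CPM per kb in TNFdARE and WT ileum and at 0.296 and 0.516 CPM per kb in TNFdARE and WT synovium. A sum over the 38 genes in the synovium thus weighs genes that are known outside T cells far above the receptor chains.

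Between tissues, more members were higher in ileum than in synovium in TNFdARE mice than in WT mice, and the difference of these counts was not tested. In TNFdARE mice 24 of 37 members tested were higher in the ileum and 4 lower, with a median log2 difference of ileum over synovium of 1.87, against 0.05 over all genes. In WT mice 10 were higher and 7 lower, with a median of 0.58, against -0.03 over all genes. Over all 16964 genes tested, 35.0% were higher and 31.6% lower in TNFdARE ileum than in TNFdARE synovium, and 36.0% were higher and 38.2% lower in WT ileum than in WT synovium. In WT mice the members higher in ileum were thus a smaller share than among all genes. Cd3e was higher in ileum by 2.90 ± 0.40 in TNFdARE (adjusted p = 7.12e-05) and by 2.09 ± 0.38 in WT (adjusted p = 4.65e-04). Cd8a was higher by 4.43 ± 0.47 in TNFdARE (adjusted p = 9.46e-06) and by 3.07 ± 0.42 in WT (adjusted p = 5.44e-05). Bcl11b was higher in ileum by 4.24 ± 0.29 in TNFdARE (adjusted p = 2.82e-07) and by 4.59 ± 0.30 in WT (adjusted p = 1.46e-07). Tcrg-C1 was higher in ileum by 3.82 ± 0.46 in TNFdARE (adjusted p = 2.45e-05) and by 3.24 ± 0.40 in WT (adjusted p = 2.48e-05). Lef1, Satb1 and Ets1 were lower in the ileum in both genotypes. Trdc was lower in ileum than in synovium in TNFdARE mice (-1.36 ± 0.37, adjusted p = 0.00720), and in WT mice the value was 0.78 ± 0.36 (adjusted p = 0.0697). The 2 tissue comparisons and the genotype comparisons share libraries.

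The effect of the TNFdARE genotype differed between synovium and ileum for 8 of 37 members tested in the 12 libraries, Trat1 being too low. The difference, synovium effect minus ileum effect on the log2 scale, was above 0 for Trdc and below 0 for Cd8b1, Txk, Sh2d1a, Il2rb, Tcf7, Satb1 and Ets1. Over all 16964 genes 5.28% were above and 6.80% below. Sh2d1a is left out of this comparison, for the reason given below. Cd8b1, Txk, Il2rb, Tcf7, Satb1 and Ets1 alone were a larger share of the members than the share below 0 in the background. For 35 of 37 members the difference was below 0, with a median of -1.35, against -0.08 over all genes. Trdc differed by 2.14 ± 0.52 (adjusted p = 0.0254), with 0.78 in the synovium and -1.39 in the ileum. Cd8b1 differed by -2.88 ± 0.83 (adjusted p = 0.0458), with -2.22 in the synovium and 0.64 in the ileum. Txk differed by -2.01 ± 0.48 (adjusted p = 0.0249) and Il2rb by -2.08 ± 0.60 (adjusted p = 0.0481), and both had a value below 0 in the synovium and above 0 in the ileum. Sh2d1a, which neither tissue's own fit could test, differed by -2.91 ± 0.74 (adjusted p = 0.0305). It passed the low-count filter only through TNFdARE ileum replicates 1 and 3 (21 and 16 counts) and WT synovium replicate 3 (10 counts). High values in these groups make the difference negative, so its call depends on the filter and is not counted as support. Tcf7 differed by -1.64 ± 0.43 (adjusted p = 0.0338), Satb1 by -1.35 ± 0.39 (adjusted p = 0.0486) and Ets1 by -0.95 ± 0.23 (adjusted p = 0.0264). For Cd3e the difference was -0.81 ± 0.54 (adjusted p = 0.353), and for Cd4 it was -1.35 ± 0.49 (adjusted p = 0.0943), which passed with the replicate block (-1.20 ± 0.31, adjusted p = 0.0441). Trac and Lck also passed below 0 with the replicate block (-1.47 ± 0.35, adjusted p = 0.0307, and -1.23 ± 0.31, adjusted p = 0.0380), and Satb1 lost its call (-1.30 ± 0.37, adjusted p = 0.0584). In that fit 15 members passed, 1 above and 14 below 0 (6.11% and 9.33% of all genes), and without ileum TNFdARE replicate 2 it was 23, 1 above and 22 below (10.5% and 9.79% of all genes). Leaving out any other library gave between 0 and 5.

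A list of 30 other genes of receptor signalling was set beside the 38. In the ileum 6 of 30 tested rose and 0 fell, with a median of 0.79, against 4.12% up and 1.57% down over all genes. Cd28, the main costimulator of T cells, had 11.9, 7.74 and 9.55 CPM in TNFdARE ileum, against 4.16, 3.21 and 3.94 CPM in WT ileum, and rose by 1.37 ± 0.21 (adjusted p = 0.0404). Nfatc2, a transcription factor that calcium signals activate, rose by 0.97 ± 0.17 and Rhoh, a GTPase needed for Zap70 recruitment, by 1.38 ± 0.29. Ptprc (CD45), Lcp2 (SLP-76) and Was, which other white blood cells share, rose by 2.03 ± 0.41, 2.06 ± 0.42 and 2.07 ± 0.39. In the synovium 8 of 29 tested rose and 4 fell, with a median of 0.14, against 13.1% up and 10.7% down over all genes, so the falls were close to the background share. Nfkb1, Malt1, Bcl10, Vav1 and Ptpn6 rose, by 0.58 ± 0.07, 0.95 ± 0.12, 0.55 ± 0.11, 0.88 ± 0.16 and 0.81 ± 0.16. Cd28 itself had 2.40, 6.05 and 4.52 CPM in TNFdARE synovium, against 10.4, 9.04 and 8.22 CPM in WT synovium, and fell there by 1.06 (SE 0.31, adjusted p = 0.0482). The genotype effect, synovium minus ileum, passed below 0 for 6 of the 30 and above 0 for none (6.80% and 5.28% of all genes).

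Among genes of T cell subsets, 2 of 11 tested rose in the ileum and 0 fell, against 4.12% up and 1.57% down over all genes. Foxp3, the factor of regulatory T cells, and Il2ra, their high-affinity IL-2 receptor chain, were the calls, Foxp3 by 3.13 ± 0.56 (adjusted p = 0.0410). Foxp3 had 2.82 to 9.40 CPM in TNFdARE ileum and 0.438 to 1.11 CPM in WT ileum. It passed the low-count filter through the TNFdARE libraries and would not have passed on the WT libraries. Its ileum call thus depends on the filter and is not counted as support. Il2ra had 6.41, 4.51 and 4.92 CPM in TNFdARE ileum, against 2.22, 1.82 and 2.60 CPM in WT ileum, and rose by 1.25 ± 0.23 (adjusted p = 0.0412). In the synovium 2 of 10 rose and 4 fell, against 13.1% up and 10.7% down over all genes. Foxp3 rose by 1.86 ± 0.48 (adjusted p = 0.0310), from 118 counts in all TNFdARE and 29 in all WT libraries, and Il2ra by 0.71 ± 0.21 (adjusted p = 0.0451). Tbx21, the T-bet factor of type 1 and cytotoxic lymphocytes, had 0.599, 0.634 and 0.869 CPM in TNFdARE synovium, against 2.56, 2.15 and 3.07 CPM in WT synovium, and fell by 1.85 (SE 0.30, adjusted p = 0.00600). Ikzf2, which encodes Helios and is also known from regulatory T cells, went the other way from Foxp3 in the synovium: it fell by 0.80 (SE 0.16), and in the ileum its value was 0.38 ± 0.38 (adjusted p = 0.530). Klf2 fell in the synovium by 0.47 (SE 0.13).

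Marker lists of other cells were summed beside these results. The summed B cell and follicle genes were 369.9, 41.1 and 109.6 CPM in TNFdARE ileum, against 26.6, 19.995 and 24.1 CPM in WT ileum, and 122.9, 205.3 and 227.4 CPM in TNFdARE synovium, against 205.2, 296.5 and 416.2 CPM in WT synovium, where the groups overlapped. Of the list's members 1 of 11 rose in the ileum, where 4.12% of all genes rose. In the synovium 1 of 13 rose and 2 fell, against 13.1% up and 10.7% down over all genes. Ccl19 and Ccl21a were at 0 in all libraries. The recombinase gene Rag1, which developing B and T cells use, had 211, 329 and 362 counts in TNFdARE synovium, against 118, 521 and 506 counts in WT synovium, and Dntt had 52, 168 and 237 counts, against 41, 164 and 169. Ptcra, the receptor chain of developing T cells, was at 0 in all 6 synovium libraries, which allows up to 3 counts each. In the ileum Rag1 had 0 to 2 counts. Tcf7, Lef1, Satb1, Il7r and Ets1 are known in lymphoid precursors too, and the part of such cells in their synovium values was not tested. Summed epithelial genes were lower in TNFdARE ileum, at 9668, 11301 and 11115 CPM, against 13636, 12889 and 13682 CPM in WT ileum, beside the lower gamma delta genes, and their part in that result was not tested. Of these 7 epithelial genes 1 passed the test, downward, where 1.57% of all genes fell.

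**Figure D4:**
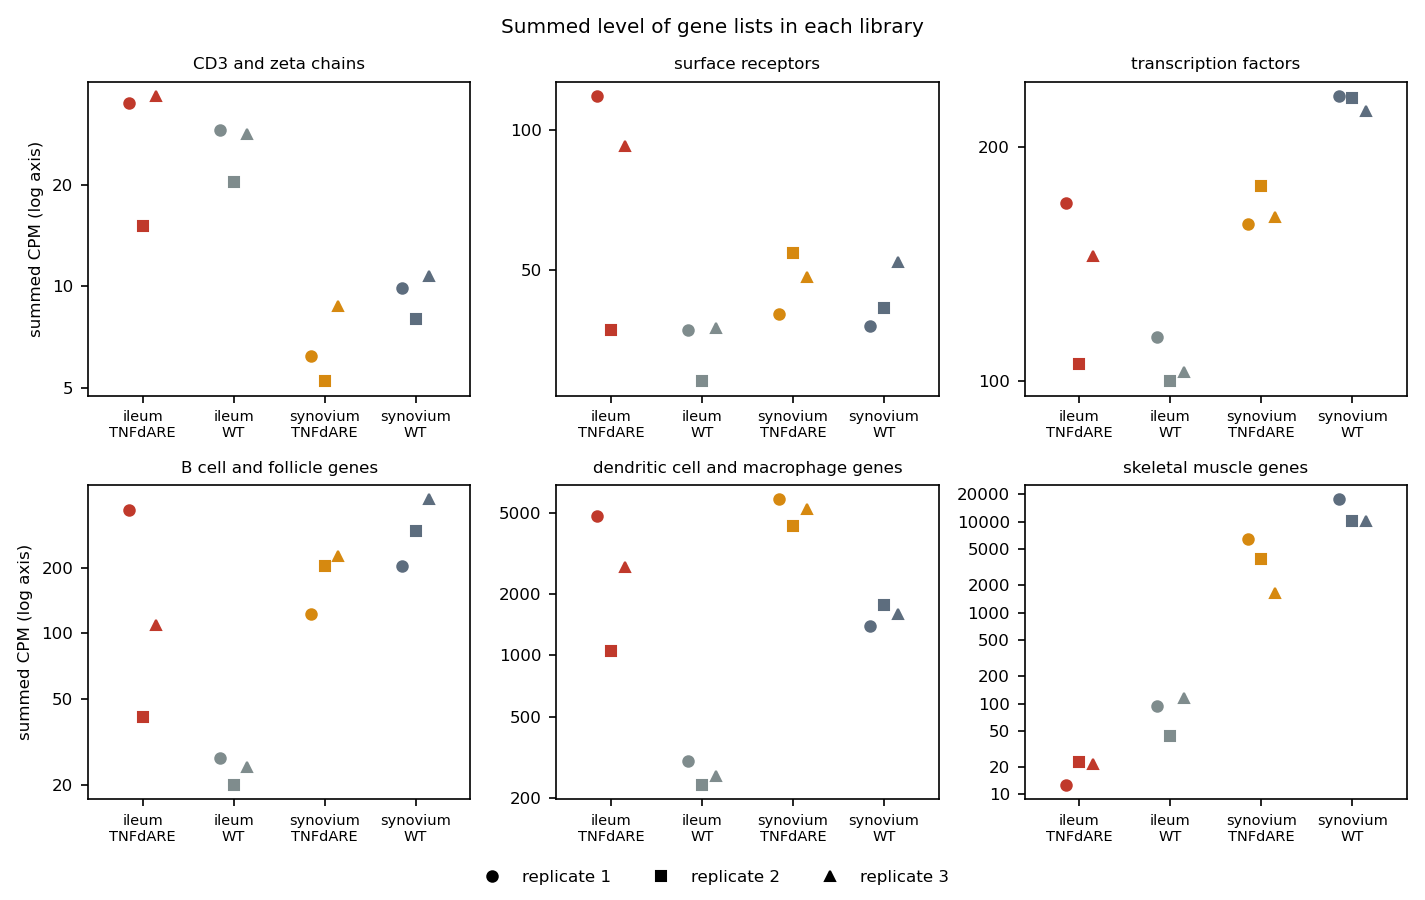
Summed CPM (vertical axis, logarithmic) of 3 groups of T lineage genes in the upper row and of 3 lists of other cells in the lower row, in each library, with the replicate as the symbol. TNFdARE ileum replicate 2 is lowest of its group in 5 of the 6 panels, and the muscle genes are lower in all TNFdARE synovium libraries (1644 to 6506 CPM) than in WT synovium (10293 to 17702 CPM).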

How the data were processed

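Polyadenylated RNA of 12 libraries (RNeasy Micro kit, TruSeq Stranded mRNA, 100-cycle single reads, per the labels' protocols) was trimmed with cutadapt 1.15 and aligned with Bowtie2 2.3.3.1 to GRCm38, per the submitters' processing notes. For the counting tool and its strand setting, the sources used here name none. Deposited by the authors were raw counts for 46603 identifiers and FPKM for 17046 genes, and 98.9% of the identifiers matched GENCODE M21. Counts were filtered with filterByExpr, scaled by TMM and tested with the quasi-likelihood test of edgeR 4.0.16 (R 4.3.3), adjusting p by Benjamini-Hochberg across all tested genes and calling at 0.05. Genotypes were compared in the 6 libraries of each tissue, and tissues and the difference of effects in a fit of all 12. Levels are CPM. Standard errors are the log2 fold change over the root of F. Shares were compared with two-sided exact permutation tests (scipy 1.17.1). The fit was tested on simulated data.

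Alternatives were DESeq2 1.42.0, limma 3.58.1 with voom weights, limma on log2 of the authors' FPKM plus 1, other scalings, no filter, a replicate block, a muscle covariate and leaving out each library. Same-numbered TNFdARE and WT libraries deviated together over 10800 genes (r = 0.233, 0.253 and 0.168 in the ileum and 0.485, 0.321 and 0.168 in the synovium). Differently numbered libraries reached r = 0.155 in the ileum (TNFdARE replicate 3 with WT replicate 1) and 0.183 in the synovium (TNFdARE replicate 3 with WT replicate 2). The labels state no pairing, so pairing of the genotypes by replicate number within a tissue is uncertain. Across tissues same-numbered libraries did not deviate together (r between -0.121 and 0.147). All 38 members are named; full values are given for members past the threshold and for Cd3e, Cd247, Trac, Cd4, Cd8a, Cd8b1, Lck and Tcf7, and of other lists at most 6 passing genes. Members and lists were chosen with earlier results of these data known. The labels call the samples biological replicates without naming animals, so p-values measure the spread between these samples. Some genes counted in the other lists are not reported here by name.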

Additional observations from a re-analysis of the deposited data

Results flagged for a closer look

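The effect of the TNFdARE genotype differed between the tissues for 8 members by the test of the difference itself, synovium effect minus ileum effect on the log2 scale in edgeR's fit of all 12 libraries. Trdc was the only one above 0, at 2.14. Below 0 were Sh2d1a at -2.91, Cd8b1 at -2.88, Il2rb at -2.08, Txk at -2.01, Tcf7 at -1.64, Satb1 at -1.35 and Ets1 at -0.95. Sh2d1a and Cd8b1 rested on 3 to 10 counts and 3 to 27 counts a library in the synovium. Sh2d1a passed the low-count filter only through the groups whose high values make its difference negative, so its call is not counted as support. The number of members that passed was between 0 and 23 when single libraries were left out. With the replicate block, Satb1 no longer passed (-1.30, adjusted p = 0.0584) and the other 7 did.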

How the results depend on the processing

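In the ileum, 1 member passed in the main test, against 4 with library size alone, 10 with DESeq2, 10 with all 12 libraries, 3 with the replicate block and 0 with limma on voom weights or on FPKM; leaving out single libraries gave 0 to 25. In the synovium, 10 passed, against 5 with all 12 libraries, 2 with the muscle covariate and 14 with the replicate block, and leaving out single libraries gave 6 to 10. For the difference between tissues, 8 passed, against 4 without the filter, 14 with DESeq2, 3 with voom, 3 with FPKM and 15 with the replicate block, which shared 7 with the main test; leaving out single libraries gave 0 to 23. In the tissue comparison of WT mice 17 passed, and leaving out single libraries gave 14 to 26, the highest without ileum TNFdARE replicate 2. The replicate block, whose numbers did not pair the tissues, gave 21 there and 28 in TNFdARE mice. The cause of these changes was not tested.

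Log2 fold changes that changed sign were all far from the threshold. In the ileum Cd3e was -0.088 with voom, -0.24 with FPKM and -0.069 with the replicate block, and with single libraries left out it ranged from -0.28 to 0.38. Likewise Cd247 ranged from -0.031 to 0.85, Cd8b1 from -0.19 to 1.02 and Cd8a from -0.53 to 0.17, with TNFdARE replicates 1 and 2 at opposite ends of each of these 3 ranges. In the synovium Trac was 0.011 with the muscle covariate and Cd247 ranged from -0.28 to 0.11. Depth limits Trat1, Sh2d1a, Cd8b1 and the variable segments in the synovium, which had few counts.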
